A study of Mus musculus with 32 samples.

Results

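Mouse homologs of 10 genes that lie at or act in human Alzheimer disease risk loci were followed through the hippocampus, the meninges and sorted meningeal lymphatic endothelial cells of 5xFAD mice. They were taken by symbol, in a choice made with earlier results of these data known: Trem2, Tyrobp, Plcg2, Inpp5d, Abi3, Spi1, Cd33, Bin1, Picalm and Sorl1. All 10 were found among the 22337 genes of the deposited tables, and the symbols and gene identifiers were the same in the tissue table and in the sorted-cell table. The mice were males of 6 months on a C57BL/6J background, and each library came from 1 animal. 5xFAD mice carry mutated human transgenes that cause amyloid deposition, under the regulatory sequence of Thy1, which is active in neurons. WT mice were littermates without the transgenes. The 5xFAD+L mice were 5xFAD mice given transcranial near-infrared light for 10 min, 3 times a week for 4 weeks, and the control procedure for untreated mice, with the same anaesthesia and shaving, left out only the near-infrared light. The hippocampus had 4 WT, 4 5xFAD and 4 5xFAD+L mice, and the meninges and the sorted cells each had 4 WT, 3 5xFAD and 3 5xFAD+L mice.

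TREM2 is a receptor of microglia and other myeloid cells that binds lipids and lipoproteins, and it signals through the adaptor DAP12, the product of Tyrobp. The signal passes through the kinase SYK to phospholipase C gamma 2 (Plcg2), while the inositol phosphatase SHIP1 (Inpp5d) acts as a brake. The sialic acid receptor CD33 is a brake in humans, and whether mouse CD33 acts in the same way was not examined here. ABI3 belongs to a complex that shapes the actin skeleton, and PU.1, the product of Spi1, is a transcription factor that myeloid cells need. BIN1, PICALM and SORL1 serve membrane trafficking in many cell types: BIN1 binds curved membranes and is abundant in oligodendrocytes and neurons, PICALM helps to build clathrin coats, and SORL1 is a sorting receptor that carries the amyloid precursor protein.

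Libraries held 13952825 to 23856476 counts in the hippocampus, 6601143 to 14708202 in the meninges and 14231415 to 24207326 in the sorted cells. Thy1, whose regulatory sequence drives the transgenes, had an FPKM (fragments scaled to transcript length and library size) of 170.3 to 189 in WT, 407 to 622 in 5xFAD and 434 to 522 in 5xFAD+L hippocampus, so the groups labelled 5xFAD were apart from WT in this tissue. In the meninges it had 10.6 to 21.3 in WT, 18.7 to 23.9 in 5xFAD and 13.6 to 15.6 in 5xFAD+L mice. It reached an FPKM of 1 in only 4 of the 10 sorted libraries. Thy1 thus does not check the genotype labels of the meninges and the sorted cells. WT replicate 2 and 5xFAD replicates 1 and 2 of the hippocampus were rich in choroid plexus RNA, with a summed FPKM of Ttr, Folr1 and Kcnj13 of 2802, 3204 and 2929 against 33.3 to 694 in the other 9 libraries. In the sorted cells, WT replicates 2 and 4 had a summed FPKM of the 7 lymphatic markers of 38.0 and 55.7 against 1156 to 9718 in the other 8 libraries, so these 2 libraries stood apart in this sum. The sum was mostly Ccl21a, with a median of 2106 against a summed 2204 in WT cells. Flt4 was at 15.1 to 34.4 in all 4 WT libraries and at 3.83 to 45.7 in 5xFAD+L cells. The sorting marker Pdpn and Prox1 each reached an FPKM of 1 in only 5 of the 10 sorted libraries.

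In the hippocampus, 7 of the 10 homologs rose in 5xFAD mice, all of them at least 2-fold, and these were the 7 myeloid genes. The receptor gene Trem2 rose the most. The 3 trafficking genes did not pass the test. A gene is called here where its adjusted p is below 0.05 over all genes tested in that tissue (edgeR quasi-likelihood test, Benjamini-Hochberg), and 6.48% of the 12981 genes tested were called higher in 5xFAD than in WT hippocampus, 4.23% at 2-fold or more. Every 5xFAD mouse lay above every WT mouse for the same 7 homologs, as it did for 8.75% of all genes tested. Without the 3 libraries rich in choroid plexus RNA the same 7 were called. The median log2 fold change was 1.39 over the 10 homologs and 0.01 over all genes tested.

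Trem2 had an FPKM of 25.0, 19.9, 27.2 and 23.1 in the 4 WT mice and of 280.5, 170.4, 154 and 174 in the 4 5xFAD mice. The groups were far apart, and 5xFAD replicate 1 was well above the other three. The log2 fold change was 3.05 ± 0.29 (SE, n = 4 and 4, edgeR adjusted p = 4.5e-05), and the mean FPKM was 8.19 times that of WT. Tyrobp, the adaptor, had 71.2, 82.2, 90.5 and 76.9 in WT and 782, 543, 454 and 493 in 5xFAD. Its log2 fold change was 2.84 ± 0.28 (SE, edgeR adjusted p = 5.84e-05), with the same mouse highest. The ratio of Tyrobp to Trem2 FPKM was 2.84 to 4.13 in WT and 2.79 to 3.19 in 5xFAD hippocampus, so that receptor and adaptor stood in nearly the same proportion in both groups.

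The other myeloid homologs rose less than Trem2 and Tyrobp. Plcg2 was the least abundant member, with an FPKM of 1.46, 1.33, 1.06 and 0.88 in WT and 3.48, 2.13, 2.12 and 3.05 in 5xFAD, and its log2 fold change was 1.21 ± 0.20 (SE, edgeR adjusted p = 0.00189). The brake gene Inpp5d had 3.03, 3.34, 2.33 and 2.53 in WT and 9.93, 6.37, 6.78 and 9.72 in 5xFAD, a log2 fold change of 1.57 ± 0.18 (SE, edgeR adjusted p = 0.000115). Cd33 had 2.24, 2.56, 2.35 and 2.22 in WT and 6.43, 3.77, 4.99 and 6.15 in 5xFAD, a log2 fold change of 1.09 ± 0.16 (SE, edgeR adjusted p = 0.00069). The activating genes Trem2, Tyrobp and Plcg2 and the brake gene Inpp5d thus moved in the same direction. The transcription factor gene Spi1 had 3.91, 4.07, 2.82 and 3.51 in WT and 21.1, 13.2, 11.4 and 16.3 in 5xFAD, and its log2 fold change was 1.99 ± 0.25 (SE, edgeR adjusted p = 0.000248). Abi3 had 2.59, 2.80, 4.04 and 2.27 in WT and 16.5, 10.2, 7.60 and 10.1 in 5xFAD, a log2 fold change of 1.59 ± 0.22 (SE, edgeR adjusted p = 0.000386), but its reads are shared with neighbours, as given further on.

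Bin1 was the most abundant homolog in WT hippocampus, at 133 to 156 FPKM. It had 111 to 170.3 in 5xFAD and 109.9 to 150.1 in 5xFAD+L mice, and the 3 groups overlapped. Its log2 fold change in 5xFAD was -0.02 with a 95% interval of -0.32 to 0.28. Picalm had 7.56, 8.10, 9.83 and 7.01 in WT and 12.6, 10.6, 11.1 and 9.23 in 5xFAD, with 1 WT mouse inside the 5xFAD range. Its log2 fold change of 0.39 had an interval of 0.10 to 0.67 but an edgeR adjusted p of 0.0974, which became 0.048 (log2 fold change 0.49) without WT replicate 3 and ran up to 0.40 in the other fits. Sorl1 had 17.3, 20.2, 19.3 and 19.7 in WT and 18.3, 16.9, 14.1 and 14.8 in 5xFAD, with a log2 fold change of -0.24 and an interval of -0.53 to 0.05. For these 3 genes the intervals left out a 2-fold change in either direction.

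**Figure D1:**
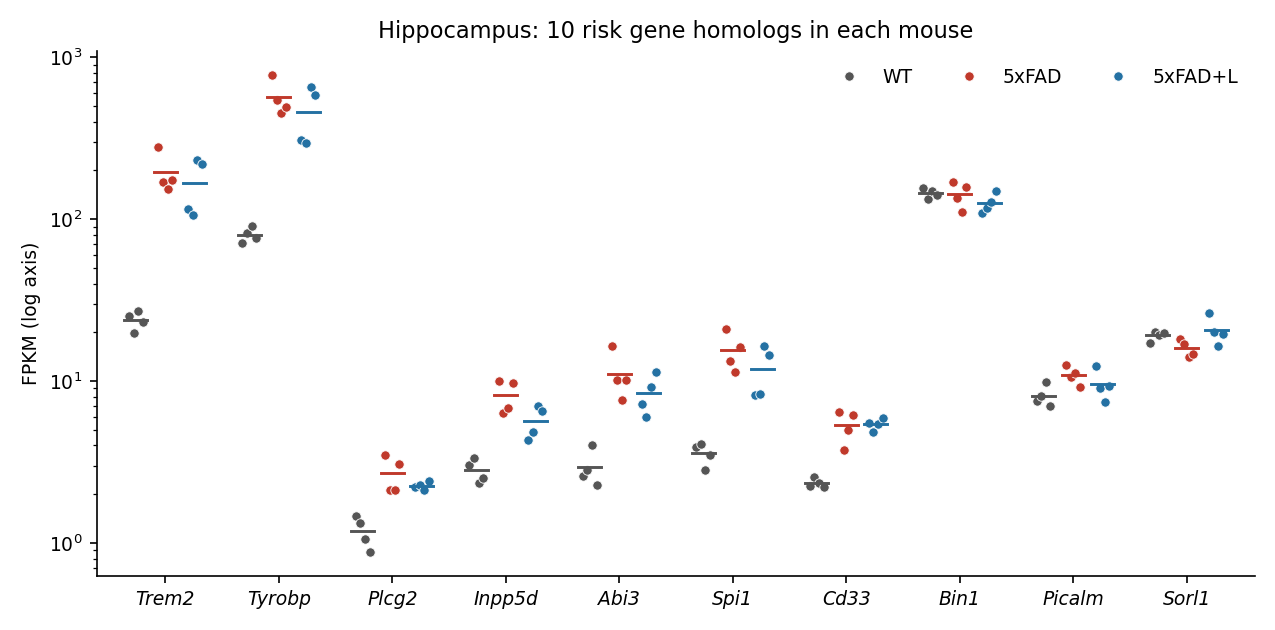
FPKM (log axis) of each homolog in each hippocampus library of WT (grey), 5xFAD (red) and 5xFAD+L (blue) mice, with points for the 4 mice of a group and a bar for their mean. The 7 myeloid genes on the left are higher in every 5xFAD mouse than in every WT mouse, and in the light group Trem2 and Tyrobp fall into a lower and a higher pair of mice.

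RefSeq promoters (GRCm38.p6, 250 bases before to 50 after a start) were given for 6 of the 10 homologs. Those of 4 homologs that rose together are shown with that of Picalm, which did not pass the test. Capitals mark GAGGAA on either strand (TTCCTC where it lies on the other), a form of the sites that PU.1 binds, called the core here. Shorter forms that other ETS factors also bind, such as GGAA alone, are not marked. In the order below they lie at chr17:48346151-48346450 (plus strand), chr8:117498025-117498324 (plus strand), chr1:87620062-87620361 (plus strand), chr7:43533122-43533421 (minus strand) and chr7:90129963-90130262 (plus strand).
Trem2: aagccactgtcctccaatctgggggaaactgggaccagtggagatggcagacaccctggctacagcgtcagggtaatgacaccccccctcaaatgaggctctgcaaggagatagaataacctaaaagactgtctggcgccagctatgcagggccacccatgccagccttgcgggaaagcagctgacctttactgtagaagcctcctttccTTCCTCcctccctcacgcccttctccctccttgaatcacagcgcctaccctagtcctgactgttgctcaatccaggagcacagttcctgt
Plcg2: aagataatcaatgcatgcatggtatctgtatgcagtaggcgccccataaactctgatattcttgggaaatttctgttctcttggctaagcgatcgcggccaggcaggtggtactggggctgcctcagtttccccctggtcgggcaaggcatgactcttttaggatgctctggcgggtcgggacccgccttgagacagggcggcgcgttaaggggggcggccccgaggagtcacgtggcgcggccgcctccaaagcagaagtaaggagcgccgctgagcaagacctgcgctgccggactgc
Inpp5d: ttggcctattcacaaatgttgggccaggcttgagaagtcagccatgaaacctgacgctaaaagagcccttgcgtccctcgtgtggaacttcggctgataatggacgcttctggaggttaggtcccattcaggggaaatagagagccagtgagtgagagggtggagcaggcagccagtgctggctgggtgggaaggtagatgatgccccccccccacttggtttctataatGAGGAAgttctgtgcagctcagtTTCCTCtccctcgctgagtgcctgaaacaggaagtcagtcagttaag
Cd33: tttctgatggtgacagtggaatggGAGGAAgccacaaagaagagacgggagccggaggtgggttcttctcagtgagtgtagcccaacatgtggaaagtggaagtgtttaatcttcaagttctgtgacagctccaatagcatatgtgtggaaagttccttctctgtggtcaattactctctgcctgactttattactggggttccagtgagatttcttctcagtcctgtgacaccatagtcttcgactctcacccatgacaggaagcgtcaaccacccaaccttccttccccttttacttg
Picalm: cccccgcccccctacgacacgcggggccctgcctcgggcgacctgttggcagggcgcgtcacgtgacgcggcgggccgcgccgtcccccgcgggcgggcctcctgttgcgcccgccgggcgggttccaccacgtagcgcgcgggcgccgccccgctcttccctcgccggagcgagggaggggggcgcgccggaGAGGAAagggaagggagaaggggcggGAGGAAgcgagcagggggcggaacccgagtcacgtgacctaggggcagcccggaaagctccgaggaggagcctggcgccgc
The core was present in 28.3% of the 32851 promoters of the table and the longer GAGGAAGT in 3.2%. Trem2 had 1 core match, whose first base lay 40 bases before the start. Inpp5d had 2, beginning 20 bases before and 3 bases after the start, and the first was also a GAGGAAGT match, which contains the core. Cd33 had 1 match 226 bases before the start and Plcg2 had none. Picalm had 2, and the 2 Sorl1 promoters of the table had none. Plcg2, which rose, thus lacked GAGGAA in this window, though it held the shorter GGAA. Picalm, which was not called, held GAGGAA. A match is a description of the sequence, not a bound site.

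Hippocampal tissue mixes many cell types, and in bulk RNA a change in the number of microglia and a change of RNA per microglial cell cannot be told apart. The summed FPKM of 12 microglia markers (among them P2ry12, Tmem119, Cx3cr1 and Csf1r) was 291 to 333 in WT, 696 to 990 in 5xFAD and 574 to 840 in 5xFAD+L mice, and all 12 were called higher in 5xFAD than in WT. Markers of leukocytes in general (Ptprc, Itgam, Laptm5 and Coro1a) summed to 138 to 156 in WT and 196 to 294 in 5xFAD. Markers of border macrophages were low in all hippocampus libraries, at 3.44 to 5.37 in WT, 6.98 to 17.2 in 5xFAD and 2.8 to 6.62 in 5xFAD+L mice. Monocyte markers were at 0.24 to 0.39 in WT and 1.03 to 2.79 in 5xFAD, and neutrophil markers at 0.74 to 1.76 and 3.68 to 9.37. These low sums were thus also higher in every 5xFAD than in every WT mouse. Astrocyte markers also differed, at 649 to 753 in WT and 788 to 3145 in 5xFAD, and the highest value belonged to the mouse that had the most Trem2. Neuron markers summed to 3804 to 4178 in WT and 2756 to 3701 in 5xFAD, lower in every 5xFAD mouse, with 1 of 7 called lower, and their part in the values of Bin1 and Sorl1 was not tested.

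The homologs were therefore also set against the microglia markers, as the log2 FPKM of a gene minus the mean log2 FPKM of the 12 markers. On this scale Trem2 went from 0.52 ± 0.18 (SD, n = 4) in WT to 2.19 ± 0.22 (SD, n = 4) in 5xFAD, and Tyrobp from 2.27 ± 0.20 to 3.74 ± 0.22. Spi1 went from -2.22 ± 0.23 to -1.46 ± 0.17. For these 3 genes every 5xFAD mouse was above every WT mouse relative to the markers as well as in FPKM. Cd33 stood at -2.82 ± 0.14 in WT and -2.99 ± 0.21 in 5xFAD, Plcg2 at -3.83 ± 0.31 and -3.98 ± 0.15, and Inpp5d at -2.57 ± 0.24 and -2.37 ± 0.15. In these 3 the groups overlapped, so that they kept about the same proportion to the markers in both genotypes. Abi3, whose reads are shared with neighbours, stood higher on average in 5xFAD, at -1.96 ± 0.29 against -2.53 ± 0.38 in WT, and the groups overlapped. Bin1, Picalm and Sorl1 stood lower relative to the markers in 5xFAD, at 1.77 against 3.13, -1.94 against -1.03 and -1.38 against 0.21. The markers were called higher, while these genes were not called and Picalm had a log2 fold change of 0.39. The scale is a description with no test, because the markers themselves differ between the groups. They also rose unevenly: the median FPKM went from 44.1 in WT to 66.7 in 5xFAD for P2ry12 and from 16.4 to 65.8 for Fcrls. That of Spi1 went from 3.71 to 14.8, so its place on the scale depends on which markers are used. How many of all genes separate on this scale was not counted.

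**Figure D2:**
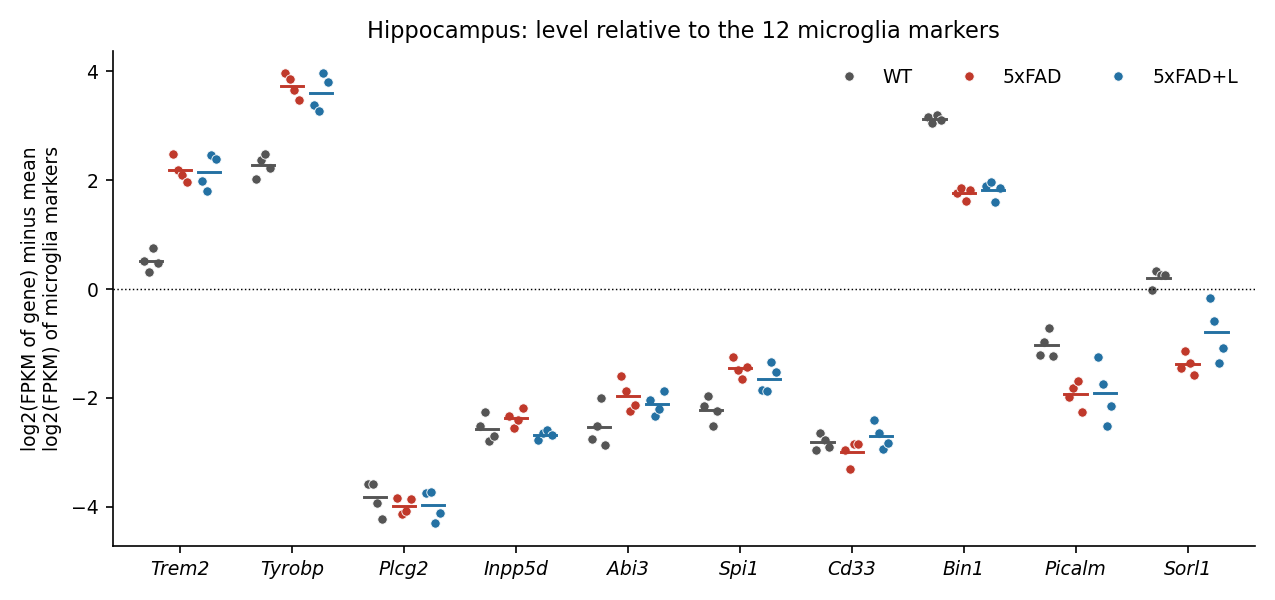
Level of each homolog relative to the microglia markers in hippocampus (log2 FPKM of the gene minus the mean log2 FPKM of 12 markers), for each WT (grey), 5xFAD (red) and 5xFAD+L (blue) mouse, with a bar for the mean of 4 mice. Trem2, Tyrobp and Spi1 are higher in every 5xFAD than in every WT mouse on this scale, while Plcg2, Inpp5d, Abi3 and Cd33 overlap.

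Across the 12 hippocampus libraries, Tyrobp (Pearson r = 0.995) and Siglecf (r = 0.994) were among the 3 genes whose log2 level was most like that of Trem2. Within the 8 libraries of 5xFAD mice with and without light, these values were 0.986 and 0.963. For Spi1 they were Gusb (r = 0.992), Ncf1 (r = 0.990) and Fcgr2b (r = 0.990). The genes most like Bin1 were Schip1 (r = 0.940), Arhgef26 (r = 0.919) and Phb (r = 0.909), and those most like Sorl1 were Ppp1r13b (r = 0.954), Nckap1 (r = 0.946) and Nbea (r = 0.937).  These are descriptions over libraries that share the genotype difference, and the genes were picked as the highest of all those tested.

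Most partners of TREM2 and DAP12 also rose in 5xFAD hippocampus. Of 15 genes listed as partners, 14 were tested, 10 rose and none fell, and their median log2 fold change was 1.17. The 12 microglia markers had a median of 1.36 and were all called higher, so the rise was not particular to the partners. The largest changes were in Hcst (3.12 ± 0.45 SE), the adaptor DAP10, in Lat2 (2.80 ± 0.30), a scaffold below immune receptors, in the phosphatase gene Ptpn6 (2.29 ± 0.24) and in Vav1 (1.84 ± 0.25), a signalling protein of blood cells. The kinase gene Syk rose by 1.15 ± 0.20 and the TREM2 ligand genes Apoe and Clu by 0.72 ± 0.13 and 0.64 ± 0.10, and Adam10, which encodes a protease that sheds TREM2, stood at 0.13 ± 0.09 and was not called. Of 24 genes of clathrin coats, membrane scission and retromer, the surroundings of Bin1, Picalm and Sorl1, 1 rose (Dnm2, dynamin 2, 0.40 ± 0.10) and 2 fell (Synj1, which uncoats vesicles, by 0.44 on the log2 scale, and the retromer gene Vps26b by 0.45). Their median was -0.01, and over all genes tested 6.48% were called higher and 2.06% lower, so these 3 of 24 are near the share of all genes. Of 28 homologs of other risk genes, 23 were tested, 8 rose and none fell. The largest changes among them were in Ctsh (2.18 ± 0.25), a lysosomal protease, Rin3 (1.79 ± 0.34), Blnk (1.74 ± 0.23) and Ms4a6d (1.73 ± 0.39), and Ptk2b stood at -0.72 ± 0.25 (edgeR adjusted p = 0.0924).

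Light was not followed by a called change of any homolog in the hippocampus. No homolog passed the test between 5xFAD+L and 5xFAD mice (edgeR; 2 of 10 had an unadjusted p below 0.05, and DESeq2 also called none), where 0.455% of all genes tested were called. The groups overlapped for all 10 homologs, and 7.63% of all genes tested had groups that did not overlap. The light-treated mice were spread widely: Trem2 had an FPKM of 116 and 106 in replicates 1 and 2 and of 231 and 219 in replicates 3 and 4. Tyrobp had 309 and 294 in the first pair and 657 and 585 in the second. The microglia markers followed the same split, with a summed FPKM of 574 and 602 in the first pair and 840 and 825 in the second, and what part they have in it was not tested. Cd33 and Plcg2, by contrast, lay within 4.82 to 5.89 and within 2.13 to 2.41 in all 4.

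The log2 fold change of Trem2 under light was -0.21 with a 95% interval of -0.79 to 0.37, which leaves out a 2-fold fall, and it was 0.04 without 5xFAD replicate 1, the highest library. That of Tyrobp was -0.30, with an interval of -0.87 to 0.27, and that of Spi1 was -0.26, with an interval of -0.78 to 0.26. Inpp5d had 4.31, 4.82, 6.98 and 6.48 under light against 9.93, 6.37, 6.78 and 9.72, a log2 fold change of -0.51 (interval -0.89 to -0.13, edgeR adjusted p = 0.162). It was one of the 2 genes with an unadjusted p below 0.05. The other was Sorl1, with 26.5, 20.1, 16.5 and 19.5 under light against 18.3, 16.9, 14.1 and 14.8, a log2 fold change of 0.36 (interval 0.07 to 0.65, edgeR adjusted p = 0.184). The remaining values were -0.32 for Abi3, -0.26 for Plcg2, -0.17 for Bin1, -0.14 for Picalm and 0.04 for Cd33. None of the 3 gene lists held a called gene in this comparison.

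Against WT mice, the same 7 homologs were higher in light-treated 5xFAD hippocampus as in untreated 5xFAD hippocampus, where 3.05% of all genes tested were called higher and 2.26% at 2-fold or more. Their log2 fold changes ran from 2.84 ± 0.29 (SE) for Trem2, 2.54 ± 0.28 for Tyrobp and 1.73 ± 0.25 for Spi1 over 1.27 ± 0.22 for Abi3, 1.13 ± 0.16 for Cd33 and 1.07 ± 0.18 for Inpp5d to 0.94 ± 0.20 for Plcg2, which alone was under 2-fold. Both 5xFAD groups were set against the same WT mice, so these 7 calls are not a second independent observation. Plcg2 lost its call without WT replicate 3 (edgeR adjusted p = 0.0549), WT replicate 4 (edgeR adjusted p = 0.0622) or 5xFAD+L replicate 4 (edgeR adjusted p = 0.0549).

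The meninges, the membranes around the brain, hold border macrophages, fibroblasts, blood cells and vessels. Between WT meninges and WT hippocampus, 6 homologs were higher and 1 was lower in the meninges and 3 (Trem2, Plcg2 and Abi3) were not called. This is about the share of all genes, since 73% of the 15132 genes tested were called in either direction. The adaptor gene Tyrobp was higher by 1.97 ± 0.31 (log2, SE), Spi1 by 1.61 ± 0.38 and Inpp5d by 0.88 ± 0.20 (edgeR adjusted p = 1.12e-05, 0.000857 and 0.000607). Trem2 did not follow Tyrobp: it had 24.1, 33.5, 21.5 and 22.9 in WT meninges, within or just above its range in WT hippocampus, and a log2 difference of 0.03 with an interval of -0.54 to 0.61. The ratio of Tyrobp to Trem2 FPKM was 9.88 to 15.7 in WT meninges, above the 2.84 to 4.13 of WT hippocampus in every mouse. It was 15.9 to 20.1 in 5xFAD and 14.5 to 18.3 in 5xFAD+L meninges. The lowest 5xFAD value, 15.88, lay only just above the highest WT value, 15.69, while 5xFAD+L and WT values overlapped. No test was made of this difference, and how often the ratio of other genes separates the groups was not counted. Markers that go with other leukocytes were present there, with neutrophil markers summing to 536 to 1568 FPKM in WT meninges and 0.7 to 1.8 in WT hippocampus, and their part in this difference was not tested.

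Bin1 was lower in WT meninges, at 45.6 to 57.1 FPKM, and its log2 difference was -1.74 ± 0.17 (SE, edgeR adjusted p = 1.8e-08). Neuron and oligodendrocyte markers were lower there too: 7 of 7 and 6 of 7 were called lower. Picalm was higher by 0.94 ± 0.19, Cd33 by 0.84 ± 0.23 and Sorl1 by 0.77 ± 0.30 (edgeR adjusted p = 0.000195, 0.00295 and 0.0244). The calls of Cd33 and Sorl1 were lost when FPKM values were tested with limma (adjusted p = 0.290 and 0.0534). That of Sorl1 was also lost without meninges WT replicate 3, the meninges library with the most Sorl1 (log2 difference 0.36, edgeR adjusted p = 0.266), without meninges WT replicate 4 (0.66), and without hippocampus WT replicate 1 (0.65), 2 (0.70) or 4 (0.71). Over all fits its adjusted p ran from 0.0027 to 0.266, and that of Cd33 from 0.00101 to 0.290. Among the TREM2 partners 9 of 15 were higher in the meninges and 1 was lower, among them Hcst (4.41 ± 0.47) and Syk (2.50 ± 0.20) as higher. Of the 24 coat and retromer genes 2 were higher and 15 lower, with Cd2ap (2.83 ± 0.29) at one end and Dnm1, the neuronal dynamin (-2.65 ± 0.28), at the other. Of the 25 other risk homologs tested 14 were higher and 5 lower, with Ms4a4a at 5.65 ± 0.82 and Ptk2b at -5.29 ± 0.38. With 73% of all genes tested called in either direction, the counts of these lists are near the share of all genes.

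In the meninges no homolog was called between 5xFAD and WT mice (0 of 10 by edgeR and by DESeq2, with none at an unadjusted p below 0.05), and 0% of the 14318 genes tested were called. Trem2 had 17.7, 20.4 and 24.9 FPKM in 5xFAD and 24.1, 33.5, 21.5 and 22.9 in WT meninges. Its log2 fold change was -0.28 with an interval of -0.88 to 0.32, which leaves out any 2-fold change. Tyrobp had 313, 410 and 395 against 306, 440.2, 213 and 359, and its log2 fold change was 0.17 (interval -0.54 to 0.89). Inpp5d had 3.32, 4.17 and 4.31 against 5.56, 4.30, 4.49 and 5.38, and its log2 fold change was -0.29 (interval -0.83 to 0.25). The largest estimates were 0.46 for Picalm and 0.46 for Cd33, both with intervals that held 0. Spi1 and Abi3 varied widely within groups, and their intervals (-0.86 to 1.11 and -0.84 to 1.10) did not leave out a 2-fold change. Microglia markers summed to 195 to 332 FPKM in WT and 238 to 329 in 5xFAD meninges, and border macrophage markers to 329.7 to 537 and 359 to 396. The make-up of the microglia sum differed from that in the hippocampus, so the sums of the tissues are not alike in meaning. In WT meninges P2ry12 had a median of 2.63 and Cx3cr1 of 5.3, against 44.1 and 23.3 in WT hippocampus. Tmem119 (51.7 against 26.3) and Aif1 (61.0 against 12.9) went the other way.

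The test of the difference itself, over the 22 libraries of both tissues, called 3 homologs. The 5xFAD effect on Trem2 was smaller in the meninges than in the hippocampus by 3.33 ± 0.42 on the log2 scale (SE, edgeR adjusted p = 0.000306), that on Tyrobp by 2.66 ± 0.46 (edgeR adjusted p = 0.00276) and that on Inpp5d by 1.87 ± 0.30 (edgeR adjusted p = 0.00181). Of all genes tested 1.74% were called, and the median difference over all genes was -0.11. The other 4 myeloid genes had differences of -1.86 ± 0.56 for Spi1 (edgeR adjusted p = 0.101), -1.46 ± 0.51 for Abi3, -1.19 ± 0.42 for Plcg2 and -0.63 ± 0.34 for Cd33 and were not called. Spi1 was called by DESeq2 (adjusted p = 0.0342) and without meninges 5xFAD replicate 2 (edgeR adjusted p = 0.0392), and its adjusted p ran up to 0.259 in the other fits. Of the TREM2 partners 7 of 15 were called with a smaller effect in the meninges, Hcst (-3.37 ± 0.63) and Lat2 (-2.86 ± 0.47) the most. Of the other risk homologs 4 of 25 were, with Ctsh (-2.02 ± 0.39), Blnk (-1.52 ± 0.38), Grn (-1.49 ± 0.32) and Apoe (-1.12 ± 0.27). None of the 24 coat and retromer genes was called (edgeR).

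**Figure D3:**
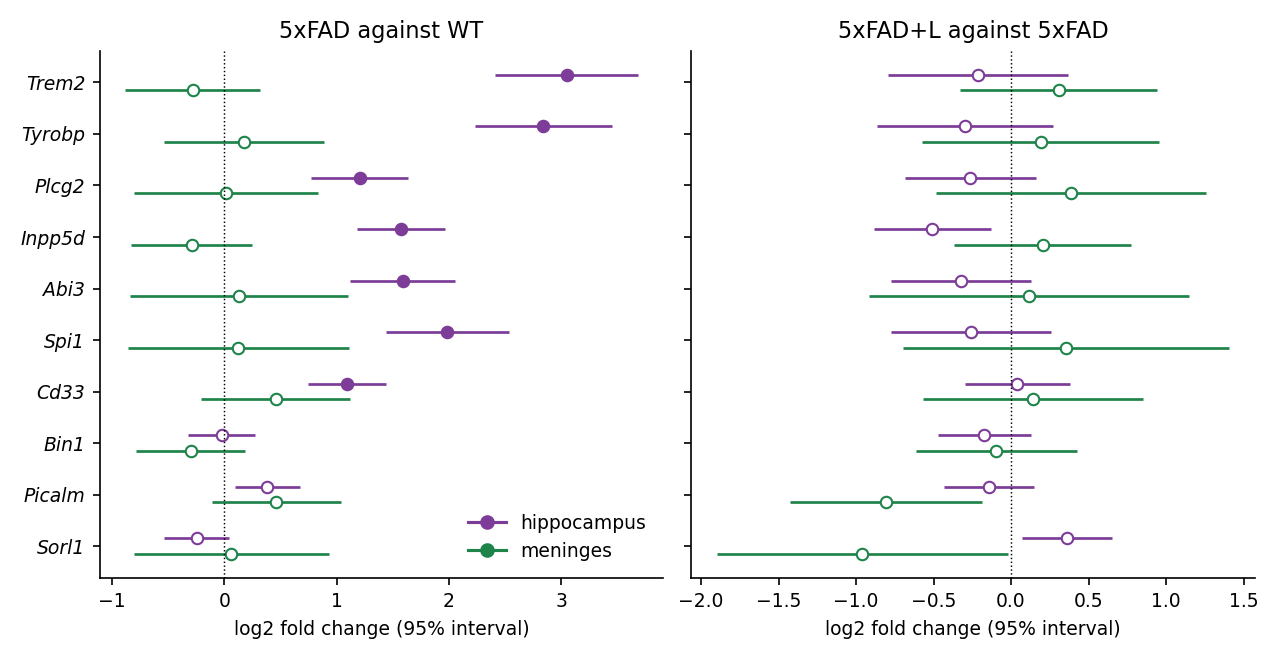
log2 fold changes with 95% intervals (edgeR) of the 10 homologs in hippocampus (purple) and meninges (green), for 5xFAD against WT on the left and 5xFAD+L against 5xFAD on the right; filled points are called over all genes tested, and the horizontal scales of the panels differ. The filled points are the 7 myeloid genes in 5xFAD hippocampus, and no point is filled on the right.

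Light was also without a called homolog in the meninges (edgeR and DESeq2, 0 of 10 called and 2 with an unadjusted p below 0.05), where 0.014% of all genes tested were called. The 2 genes were of the trafficking group. Picalm had 18.1, 10.9 and 14.7 FPKM in 5xFAD+L and 30.0, 27.7 and 25.3 in 5xFAD meninges, so the groups did not overlap, as was the case for 20.8% of all genes tested. Its log2 fold change was -0.81 (interval -1.43 to -0.19, edgeR adjusted p = 0.312). The WT mice had 13.6, 17.1, 28.5 and 19.5, and so spanned both groups. Sorl1 had 17.6, 21.5 and 16.4 in 5xFAD+L against 53.6, 36.0 and 18.4 in 5xFAD, a log2 fold change of -0.96 (interval -1.90 to -0.02, edgeR adjusted p = 0.387), and 22.3, 16.3, 59.5 and 41.4 in WT. Among the myeloid genes the light-treated replicate 1 was the highest library for Trem2 (35.3), Tyrobp (646), Inpp5d (9.24), Spi1 (27.0) and Cd33 (8.07). The same library had the most neutrophil markers, with a summed FPKM of 7560 against 536 to 3109 in the other 9, and their part in these values was not tested.

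Against WT meninges, 5xFAD+L meninges also had no called homolog (edgeR and DESeq2), with 0.014% of all genes tested called. The 1 homolog with an unadjusted p below 0.05 was Sorl1, with a log2 fold change of -0.90 (interval -1.79 to -0.0043, edgeR adjusted p = 0.303). Bin1 was lower in every 5xFAD+L library (38.4, 42.6 and 32.0) than in every WT library (57.1, 50.3, 45.8 and 45.6), as 12.3% of all genes tested had groups that did not overlap. Whether light acted differently in the tissues was tested in the same way as genotype. None of the 10 homologs was called (edgeR; 3 had an unadjusted p below 0.05, and DESeq2 called none), where 1.05% of all genes tested were. The estimates furthest from 0 were those of Sorl1, at -1.33 ± 0.45 (SE, edgeR adjusted p = 0.124), Picalm, at -0.69 ± 0.29, and Inpp5d, at 0.68 ± 0.31.

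The sorted cells were taken as DAPI-negative, CD45-negative, CD31-positive and PDPN-positive, a gate that removes leukocytes. Trem2, Tyrobp, Spi1, Cd33 and Sorl1 had 0 counts in all 10 libraries. With a floor of 3 counts this allows at most 0.124 to 0.211 CPM (counts scaled to the library total), a limit for counting error only. The leukocyte genes Ptprc, Laptm5 and Coro1a were listed at 0 in all 10 libraries as well, and the endothelial genes Pecam1 (189 to 398 FPKM) and Cldn5 (159 to 2048) were present in every one. These libraries were sparse, with 5998 to 9020 genes above 0 against 16371 to 19769 in the tissues, at total counts in the same range as those of the hippocampus.

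The other 5 homologs were detected unevenly in the sorted cells. Picalm was above 1 FPKM in 8 of 10 libraries, at 13.4 to 67.9 in those and at 0.17 and 0.91 in WT replicates 1 and 2. Inpp5d reached that level in 6 libraries, with 52.6 in WT replicate 2 and at most 23.8 elsewhere, and had 0 to 3 counts in the other 4. Bin1 did so in 5, at 3.13 to 25.7, and had 0 or 1 counts in the remaining 5. Plcg2 did so in 2, at 9.66 in WT replicate 3 and 1.05 in 5xFAD replicate 1, and was not tested. Levels of a gene thus went from at or near 0 to well above 10 FPKM within a group. The 4 homologs that could be tested (Inpp5d, Abi3, Bin1 and Picalm) had no call between 5xFAD and WT, 5xFAD+L and 5xFAD or 5xFAD+L and WT cells (edgeR and DESeq2, with none at an unadjusted p below 0.05 by edgeR), where 0%, 0% and 0.0122% of the 8188 genes tested were called. Without the 2 WT libraries low in lymphatic markers, the counts were again 0.

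**Figure D4:**
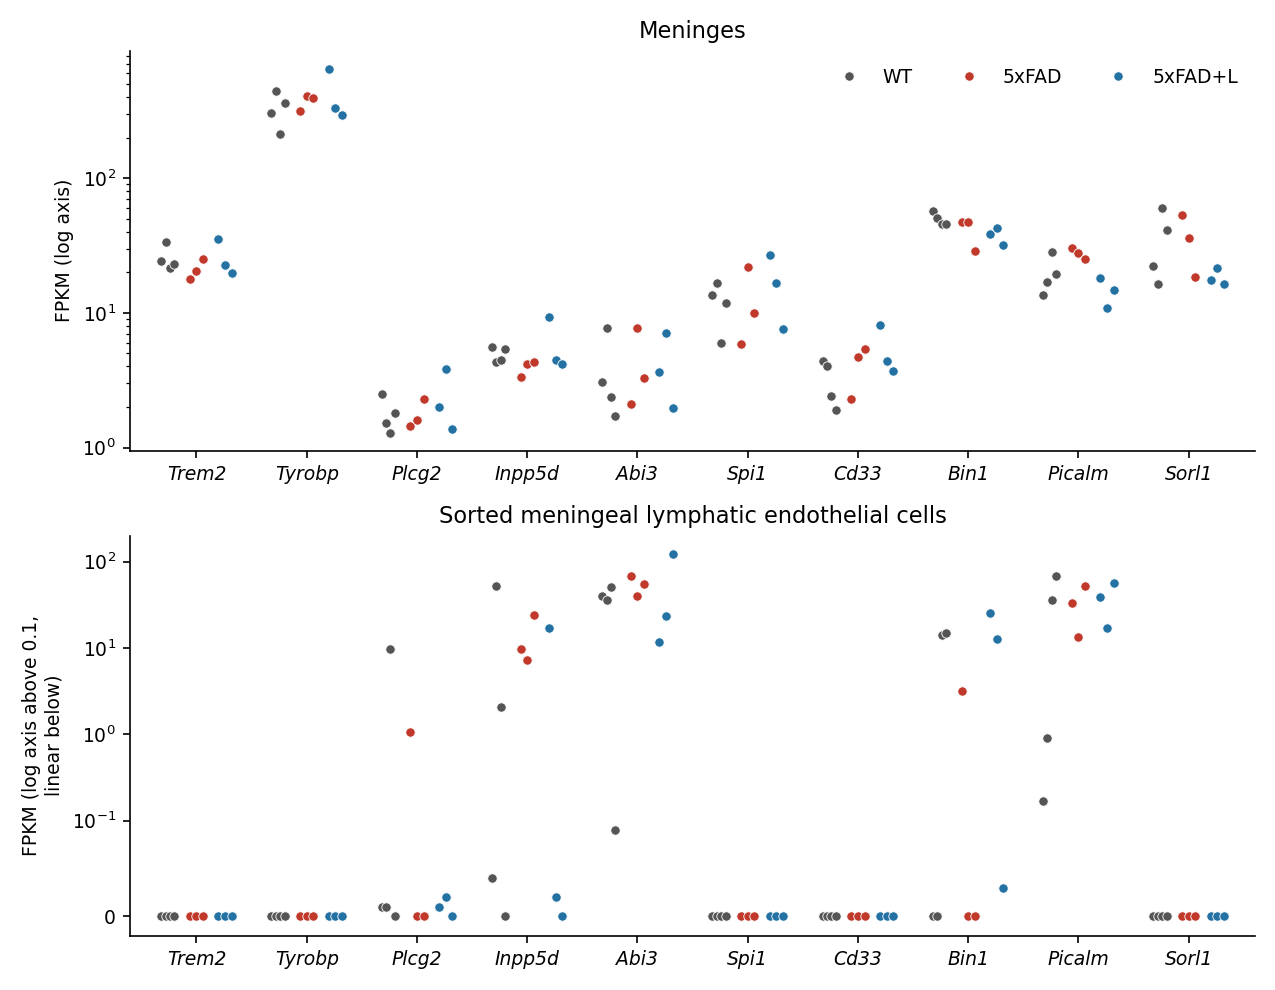
FPKM of each homolog in each meninges library (upper panel, log axis) and each library of sorted lymphatic endothelial cells (lower panel, log axis above 0.1 and linear below it), for WT (grey), 5xFAD (red) and 5xFAD+L (blue) mice. In the meninges 5xFAD and 5xFAD+L overlap except for Picalm, and in the sorted cells 5 homologs are at 0 in every library.

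Abi3 needs a reservation in all 3 tissues. On GRCm38 it lies on the minus strand of chromosome 11 at 95830074 to 95842476, and its exons share 2913 bases with Zfp652, 1708 with Phospho1 and 234 with Gngt2, all on the opposite strand. The libraries do not mark strand, and the estimated counts of Abi3 were whole numbers in 3.1% of the samples against 100% for each of the other 9 homologs, so that fractions of reads were assigned to it. Gngt2, a G protein subunit gene, had 6.38 to 8.56 FPKM in WT and 17.8 to 33.7 in 5xFAD hippocampus, a log2 fold change of 1.65 ± 0.32 (SE, edgeR adjusted p = 0.0052). Zfp652 and Phospho1, which share more bases with Abi3, did not pass the test, with log2 fold changes of -0.08 ± 0.09 and -1.20 ± 0.41 (edgeR adjusted p = 0.638 and 0.0879). Gngt2 had 145 to 752 in the meninges and 244 to 818 in the sorted cells. Abi3 had 1.72 to 7.68 in the meninges and 0.09 to 123 in the sorted cells, where it was above 1 FPKM in 9 of 10 libraries while Ptprc was at 0. How much of the Abi3 level belongs to Abi3 itself was not tested.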

How the data were processed

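RNA-seq libraries were made by the Smart-seq2 protocol from single hippocampi, single meninges and sorted cells, 32 libraries in all. Whether libraries of different tissues share a mouse is not given in the sources used here, and they were treated as independent. The authors deposited RSEM expected counts (estimated counts, not normalized) and FPKM values per gene. The study's methods name fastp, RSEM and DESeq2, while the submitters' processing notes name Trimmomatic, HISAT2, StringTie and DESeq2 with mm10; which of these made the files, and the annotation, is not given in the sources used here.

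Differences were tested on rounded expected counts by the quasi-likelihood method of edgeR 4.0.16 (TMM) in R 4.3.3, with the 3 groups of a tissue in one fit and both tissues (22 libraries) in one fit for comparisons between tissues. A gene was tested where 3 or more samples reached an FPKM of 1. p-values were adjusted by Benjamini-Hochberg over all genes tested and called below 0.05. SEs and 95% intervals come from the F statistic and its degrees of freedom. The fit was tested on simulated counts. Named genes were the 10 homologs, up to 4 called genes of each pathway list with the largest fold changes, and the 3 genes most alike to Trem2, Spi1, Bin1 and Sorl1 in log2 level, of which 1 is not reported here. The homologs and all lists were chosen with earlier results of these data known. In the hippocampus Syk, Apoe, Clu, Adam10 and Ptk2b were named after their values were seen. Apoe, Clu, Blnk, Adam10 and Cd2ap stand in more than one list. Alternatives were DESeq2 1.42.0, limma 3.58.1 on log2(FPKM + 1) and log2(FPKM + 0.1), median-of-ratios scaling, other filters, only the groups compared, a replicate block, a 2-fold rule, leaving out each mouse, and leaving out libraries that stood apart. Promoters came from RefSeq (GRCm38.p6) and gene positions from GENCODE vM21. A floor of 3 counts was used, which covers counting error only.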

Additional observations from a re-analysis of the deposited data

Results flagged for a closer look

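In untreated 5xFAD hippocampus, 1 mouse lay far from the other 3 for Trem2, with 280.49 FPKM against a group median of 172. The same library was the highest of its group for all 10 homologs, for the microglia markers (summed FPKM 990.0) and for the astrocyte markers (3145), and it was one of the 3 libraries rich in choroid plexus RNA. In the sorted cells of WT mice, Plcg2 reached 9.66 FPKM in 1 library with a group median of 0.01, and Inpp5d reached 52.64 in another with a median of 1.05. Of 45 groups looked at, 3 held such a library, and about 1 in 20 does so by chance alone.

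The effect of genotype differed between meninges and hippocampus for 3 homologs, by a test of the difference itself (edgeR, both tissues in one fit). The differences in log2 fold change were -3.3274 for Trem2, -2.6625 for Tyrobp and -1.867 for Inpp5d (adjusted p = 0.000306, 0.00276 and 0.00181).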

How the results depend on the processing

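The counts of called homologs stayed within 1.5 times the reported count in 113 of 114 cases over the alternatives other than leaving out a mouse, and in 101 of 101 cases with a mouse left out. The exception was WT meninges against WT hippocampus, where 3 and not 7 homologs passed when at least 2-fold was also asked for. Most comparisons had 0 called homologs and stayed at 0, so their cases say little about stability. A count within the bound can also hide a lost or gained call, as given above for Plcg2, Spi1 and Sorl1. Log2 fold changes near 0 changed sign: Bin1 in 5xFAD hippocampus to 0.0059 with a mean FPKM of at least 5 (-0.14 to 0.087 with a mouse left out), Trem2 under light in hippocampus to 0.059 without the 3 libraries rich in choroid plexus RNA, an alternative chosen after seeing the data (-0.42 to 0.038 with a mouse left out), Cd33 under light in hippocampus (-0.078 to 0.15 with a mouse left out), and Tyrobp in 5xFAD meninges (-0.0042 to 0.36 with a mouse left out). Trem2 between the WT tissues moved to -0.032 without a filter on low values (-0.14 to 0.11 with a mouse left out). None of these was called in any of these fits.

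Whether replicate numbers pair the mice was not settled. For libraries of the same number, the correlation of deviations was -0.24 to 0.09 over 12 pairs in the hippocampus. It was -0.32 to 0.26 over 9 in the meninges, of which 2 were over 0.1, and -0.04 to 0.01 over 8 in the sorted cells. Over 10 pairs of hippocampus with meninges it was -0.06 to 0.22, of which 3 were over 0.1. Libraries of different numbers were not compared, so these values have no reference and cannot exclude a pairing. With a replicate block, Tyrobp in 5xFAD meninges was -0.0052, and no call of a homolog changed. Of all genes, the block called 840 rather than 1108 between 5xFAD and WT hippocampus, 174 rather than 263 for the difference between tissues in the genotype effect and 19 rather than 159 for that in the light effect.

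With a mean FPKM of at least 5, Plcg2 and Cd33 were not tested in hippocampus, so 5 of 8 homologs were called in 5xFAD. The spread between mice, as edgeR's common biological coefficient of variation, was 0.198 in the hippocampus, 0.35 in the meninges and 1.89 in the sorted cells, which limits what the last 2 can show. Which libraries were set aside as standing apart was decided after seeing the data.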
